A study of Rattus norvegicus with 6 samples.

Results

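Histamine leaves the body by 2 enzymatic routes, and the genes of the enzymes that open them were followed here in rat kidney grafts. Hnmt encodes histamine N-methyltransferase, and Aoc1, called Abp1 in older annotations, encodes diamine oxidase. They were chosen because they had moved in opposite directions between tolerated and syngeneic grafts in an earlier look at these arrays, so their differences between those groups are given as a description, with no test. They are 2 of the 5990 genes named on the array. Each gene had 1 probe among the 26857 probes of the array, 21331503 for Hnmt (RefSeq transcript NM_031044) and 21016992 for Aoc1 (NM_022935), and both passed the filter that left 20142 probes for testing.

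The arrays measured RNA from sections of 6 kidney transplants harvested on day 100. The 3 tolerated grafts were LEW.1W kidneys (haplotype RT1u, 8 to 12 weeks old) in LEW.1A recipients (RT1a) treated with antibodies against donor class II molecules, and the recipients of such life-sustaining allografts lost their own kidneys on day 7. The 3 syngeneic grafts were LEW.1A kidneys in LEW.1A recipients, and all grafts were placed heterotopically. The strains share their background outside the MHC, so haplotype mismatch, donor strain and antibody treatment changed together and cannot be told apart. Whether the syngeneic recipients also lost their own kidneys is not stated, so this may differ between the groups as well. Whether each sample of a group was a different animal is not stated, so the p-values rest on sample-to-sample spread that may be technical.

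Both enzymes inactivate histamine, the amine that mast cells and basophils store and release. Hnmt is a cytosolic enzyme that acts inside cells: it moves a methyl group from S-adenosylmethionine to the imidazole ring of histamine, and the product is then oxidised by monoamine oxidase and aldehyde dehydrogenases. Diamine oxidase is a secreted copper enzyme of epithelial cells, well known from intestine and placenta, that removes the amino group of histamine outside cells and also oxidises putrescine, the simplest polyamine. Histamine made in the kidney acts on its vessels and glomeruli through H1 and H2 receptors.

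The array median of the deposited intensity was 745 to 991 in tolerated and 421 to 707 in syngeneic grafts, and arrays were made equal in distribution before comparison. Over all tested probes, 25.2% passed limma in tolerated against syngeneic grafts (Benjamini-Hochberg adjusted p under 0.05), 12.4% as higher and 12.8% as lower, the values of the groups did not overlap for 47.3%, and the median log2 difference was -0.02. Among the 4955 named genes tested, 15.5% were higher and 17.2% lower. The kidney marker Umod, made in the loop of Henle, was bright on every array, at 20.10 to 20.67 in tolerated and 20.69 to 20.84 in syngeneic grafts (log2). Syngeneic replicate 3 stood apart from its group: on the first principal component, which held 63.2% of the variance, it lay at -32.5, against 72.4 to 96.2 for the tolerated arrays and -107.1 and -104.4 for the other syngeneic arrays. Results below are therefore also given without it where they change.

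The letters upstream of both genes are shown because the genes lie on different chromosomes and their differences had opposite signs. Each run is the 250 bases before the RefSeq gene start in assembly GRCr8, read 5′ to 3′ on the gene's own strand, at chr3:27010292-27010541 (minus strand) for Hnmt and chr4:79142876-79143125 (plus strand) for Aoc1. Capitals mark matches to any of 8 short motifs searched on both strands.
Hnmt: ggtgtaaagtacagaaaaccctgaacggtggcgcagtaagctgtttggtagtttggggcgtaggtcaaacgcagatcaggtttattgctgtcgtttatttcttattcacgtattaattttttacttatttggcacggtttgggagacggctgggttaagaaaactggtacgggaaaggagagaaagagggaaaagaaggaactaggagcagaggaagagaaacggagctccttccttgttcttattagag
Aoc1: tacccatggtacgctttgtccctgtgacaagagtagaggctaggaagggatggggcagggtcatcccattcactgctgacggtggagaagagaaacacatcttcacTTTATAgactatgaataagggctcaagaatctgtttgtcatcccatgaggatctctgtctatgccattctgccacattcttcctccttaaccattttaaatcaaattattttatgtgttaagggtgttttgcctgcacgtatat
The motifs were the TATA box TATAAA, the CCAAT box CCAAT, the GC box GGGCGG, the AP-1 site TGACTCA, the C/EBP-like TTGCNNAA, the STAT-like TTCNNNGAA, the HNF1 core GTTAAT and the HNF4 site CAAAGTCCA. The Hnmt window held none of these letters. The Aoc1 window held 1 match, TATAAA on the opposite strand, beginning 144 bases before the gene start, which 12.9% of the 33469 rat windows of this length also hold on either strand. GC content was 44% for Hnmt and 43.2% for Aoc1.

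Hnmt, the methylating enzyme, was a bright probe in syngeneic grafts and far dimmer in tolerated ones. Its log2 level was 10.21, 10.53 and 11.51 in tolerated replicates 1 to 3, against 15.51, 16.35 and 15.81 in syngeneic replicates 1 to 3. The groups did not overlap: the brightest tolerated array lay 4.0 log2 units under the dimmest syngeneic one, while the arrays of a group spanned 1.30 (tolerated) and 0.84 (syngeneic). The group means were 10.75 ± 0.68 (SD) in tolerated and 15.89 ± 0.43 (SD) in syngeneic grafts, with n = 3 each, a difference of -5.14 ± 0.40 (SE), or 35.3-fold lower. Before normalization the deposited intensities were 1401, 1611 and 4510 in tolerated and 34005, 77491 and 66640 in syngeneic grafts. In tolerated grafts the probe was still brighter than 57.7% to 68.6% of the probes on its array, against 94.8% to 97.1% in syngeneic grafts.

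Aoc1, the diamine oxidase gene, was the opposite: bright in tolerated grafts and near the dim end of the array in 2 of the 3 syngeneic ones. Its log2 level was 13.07, 12.48 and 11.95 in tolerated replicates 1 to 3, against 7.47, 7.65 and 9.76 in syngeneic replicates 1 to 3. The groups did not overlap, with a gap of 2.18 between the dimmest tolerated and the brightest syngeneic array. Its means were 12.50 ± 0.56 (SD) in tolerated and 8.30 ± 1.27 (SD) in syngeneic grafts, with n = 3 each, a difference of 4.20 ± 0.68 (SE), or 18.4-fold higher. Intensities as deposited were 9864, 5605 and 6049 in tolerated and 130, 202 and 929 in syngeneic grafts. Syngeneic replicates 1 and 2 lay under the filter level of 7.76, where the probe outshone 19.2% and 23.4% of its array. No measure of background was in hand, so the syngeneic level, and with it the size of the fold, rests on dim values. RefSeq also lists a pseudogene, Aoc1-ps1, and whether the probe matches it was not tested.

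**Figure D1:**
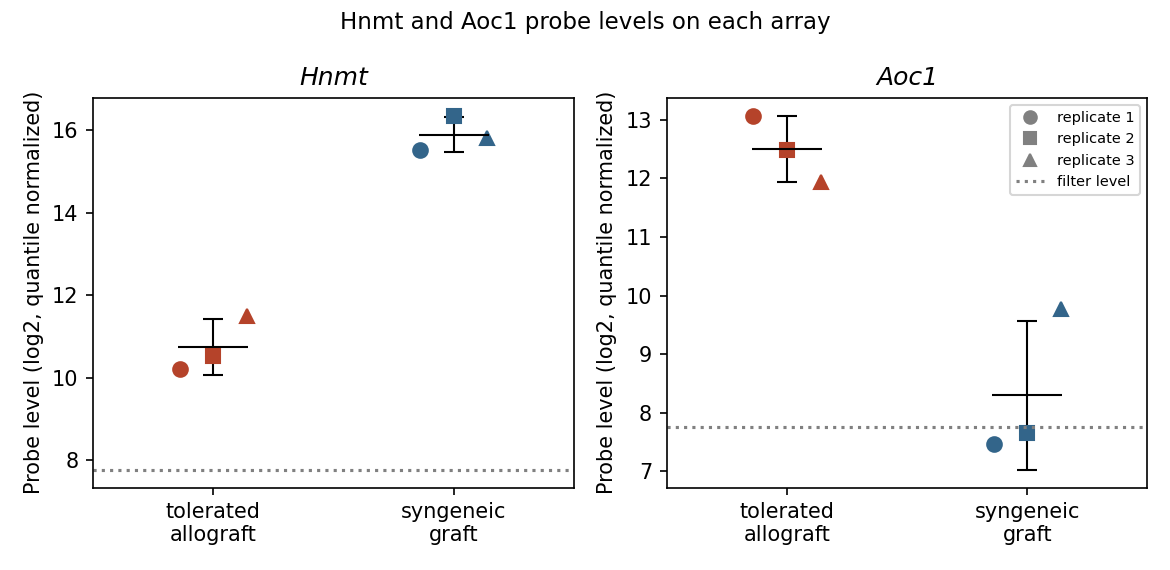
Log2 level of the Hnmt probe (left panel) and of the Aoc1 probe (right panel) on each of the 6 arrays, tolerated allografts left of syngeneic grafts, with the group mean and SD in black and the filter level as a dotted line. Tolerated Hnmt values lie between 10.21 and 11.51 and all 3 syngeneic values above 15, whereas for Aoc1 the tolerated values lie between 11.95 and 13.07 and the syngeneic ones between 7.47 and 9.76.

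The genes differed in which arrays carried the spread. For Hnmt the widest departure in either group was tolerated replicate 3, and its SD in tolerated grafts exceeded that of 84.8% of tested probes (60.2% in syngeneic grafts). For Aoc1 it was syngeneic replicate 3, and the SD in syngeneic grafts exceeded that of 95.2% of tested probes (79.1% in tolerated grafts). The median probe had an SD of 0.26 in tolerated and 0.33 in syngeneic grafts. Without syngeneic replicate 3 the difference of Aoc1 was 4.91 ± 0.36 (SE), or 30.1-fold, and that of Hnmt was -5.17 ± 0.49, or 36.1-fold lower. With any 1 array left out the folds ran from 29.0 to 47.0 lower for Hnmt and from 14.0 to 30.1 higher for Aoc1. In the order of change over all tested probes, 21 fell further than Hnmt and 70 rose further than Aoc1.

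Syngeneic replicate 3 thus carried an intermediate level of Aoc1 but not of Hnmt. On a scale that puts the mean of syngeneic replicates 1 and 2 at 0% and the tolerated mean at 100%, a measure chosen after the values were seen, this array lay at 44.6% for Aoc1 and at 2.45% for Hnmt. The median of the 3050 probes called higher without that array was 45.3%, and 48.7% of them lay below Aoc1. The 2996 probes called lower without it had a median of 30.0%, and 10% of them lay below Hnmt. On the same scale the mean level of the tubular injury list lay at 40.6%, that of macrophage and dendritic cell genes at 44.6% and that of proximal tubule genes at 13.8%. Among the other lists described below, the histamine pathway, where more genes fell than rose, lay at 46.1% and mast cell and basophil genes at 82.1%. The histamine pathway mean includes genes that limma did not call. Of its called genes, Slc22a2, Slc18a1, Aldh3a2, Aldh2 and Aldh9a1 lay at 11.1% to 17.3%. Aldh1b1 and Aldh1a1 lay at 47.6% and 57.0%. Amine oxidase and polyamine genes lay at 22.2% and methyl transfer genes at 20.4%. The mean of the amine oxidase and polyamine list, whose genes moved both ways, differed little between groups. It was -0.09 to -0.07 in tolerated and 0.05 to 0.10 in syngeneic grafts, so its percentage rests on a small gap. The called genes of that list ran from -33.5% to 41.5%. Granulocyte, distal nephron and podocyte and endothelial genes lay at -24.3%, -19.5% and -152%. The last also rests on a small gap, with list means of -0.54 to -0.10 in tolerated grafts and 0.27 and -0.06 in syngeneic replicates 1 and 2.

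The rest of the histamine pathway was read from 19 genes, of which 3 had no probe named by the annotation (Slc29a4, Maoa and Aldh7a1) and 2 lay under the filter (Slc18a2 and Hrh4). Of the 14 tested, 6 fell and 1 rose by limma, where 17.2% of all named genes tested were lower and 15.5% higher. The median difference was -0.89, against -0.02 over all tested probes. The changed genes were those of uptake, vesicular storage and aldehyde oxidation. Neither the gene of histamine synthesis nor a tested receptor gene passed the threshold.

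Hdc, histidine decarboxylase, is the enzyme that makes histamine. Its log2 level was 8.38, 7.57 and 8.37 in tolerated and 7.35, 7.86 and 7.24 in syngeneic grafts. These overlapped, at dim levels, and the difference was 0.62 ± 0.31 (SE; limma adjusted p = 0.190). The syngeneic mean of Hdc, 7.48, lay under the filter level of 7.76, so the probe was tested only because of its tolerated levels. Hdc was tested in only 4 of the 6 fits with an array left out and passed in none. The vesicular amine transporter gene Slc18a1 fell by 1.97 ± 0.39 (limma adjusted p = 0.0196), with 7.46, 6.6 and 7.81 in tolerated against 8.93, 9.78 and 9.08 in syngeneic grafts. Its tolerated mean of 7.29 lay under the filter level of 7.76, so the probe was tested only because of its syngeneic levels and the size of its fall rests on dim values. The call was lost without tolerated replicate 1 or syngeneic replicate 2 (limma adjusted p = 0.0576 and 0.0612). Slc18a2, which loads histamine into mast cell granules, was under the filter and was not tested.

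The largest change of the list was that of Slc22a2, the organic cation transporter OCT2 of the basolateral membrane of proximal tubules, which carries histamine among other amines. Its levels were 12.98, 12.85 and 14.09 in tolerated and 18.14, 18.42 and 17.73 in syngeneic grafts. The groups did not overlap, tolerated replicate 3 was the highest of its group as it was for Hnmt, and the log2 difference was -4.79 ± 0.39 (SE; limma adjusted p = 0.00368). This call held in all 6 fits with an array left out. Its relative Slc22a3 (OCT3) ranged from 7.70 to 10.02 in tolerated and from 8.09 to 10.96 in syngeneic grafts and did not pass (-0.64 ± 0.89, limma adjusted p = 0.635).

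The 3 tested receptor genes gave no call. Hrh1, the receptor of smooth muscle and endothelium, stood at 10.98 to 11.10 in tolerated and 11.10 to 11.24 in syngeneic grafts, a difference of -0.13 ± 0.14 (SE). Hrh2 differed by 0.40 ± 0.31 and Hrh3, known mainly from neurons, by -0.20 ± 0.56, and the arrays of both groups overlapped for each. Hrh4, the receptor of leukocytes, was under the filter, at 5.83 to 7.17 in tolerated and 7.88 to 8.08 in syngeneic grafts. With no filter on dim probes 6 of 16 histamine pathway genes were called lower by limma, and Hrh4 was among them. The size of its fall rests on dim values. The limma adjusted p of the 3 tested receptors was 0.389 to 0.819, which does not show that their levels were equal.

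Among the enzymes that oxidise what Hnmt and Aoc1 leave, 4 aldehyde dehydrogenase genes fell and 1 rose. Aldh9a1, which oxidises aminoaldehydes such as that formed from putrescine, fell by 2.41 ± 0.19 (limma adjusted p = 0.00363), with 13.58, 13.45 and 13.66 in tolerated and 16.12, 16.12 and 15.68 in syngeneic grafts. The mitochondrial Aldh2 fell by 2.63 ± 0.22 (limma adjusted p = 0.00406), with 14.10, 13.59 and 13.75 in tolerated and 16.58, 16.6 and 16.14 in syngeneic grafts. Both passed with any 1 array left out, and neither overlapped between groups.

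The mitochondrial Aldh1b1 fell by 2.82 ± 0.56 (limma adjusted p = 0.0198) and the cytosolic Aldh1a1 by 1.18 ± 0.31 (adjusted p = 0.0403). Aldh3a2, the fatty aldehyde dehydrogenase, rose by 0.66 ± 0.15 (adjusted p = 0.0275), with 14.08 to 14.31 in tolerated and 13.47 to 13.61 in syngeneic grafts. Aldh1a1 and Aldh3a2 passed in 1 of the 6 fits with an array left out, that without syngeneic replicate 3, and neither passed with no filter on dim probes (limma adjusted p = 0.0602 and 0.0561). Aldh3a2 also missed the threshold after median scaling (0.45, adjusted p = 0.113), and Aldh1b1 passed in 2 of the 6 fits, those without syngeneic replicate 2 or 3.

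Maob, a monoamine oxidase that acts on methylated histamine, had 10.17, 10.42 and 10.38 in tolerated and 11.88, 12.17 and 10.31 in syngeneic grafts. Syngeneic replicate 3 lay among the tolerated arrays here, and the difference of -1.13 ± 0.50 did not pass (limma adjusted p = 0.153). Without that array Maob passed, at -1.69 (limma adjusted p = 0.00456). The aldehyde oxidase gene Aox1 differed by -0.32 ± 0.21 (adjusted p = 0.308). Over the whole list the count of fallen genes was 3 without tolerated replicate 1 and 4 to 7 in the other fits with 1 array left out, and the rise of Aldh3a2 was the only one called in any of them.

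**Figure D2:**
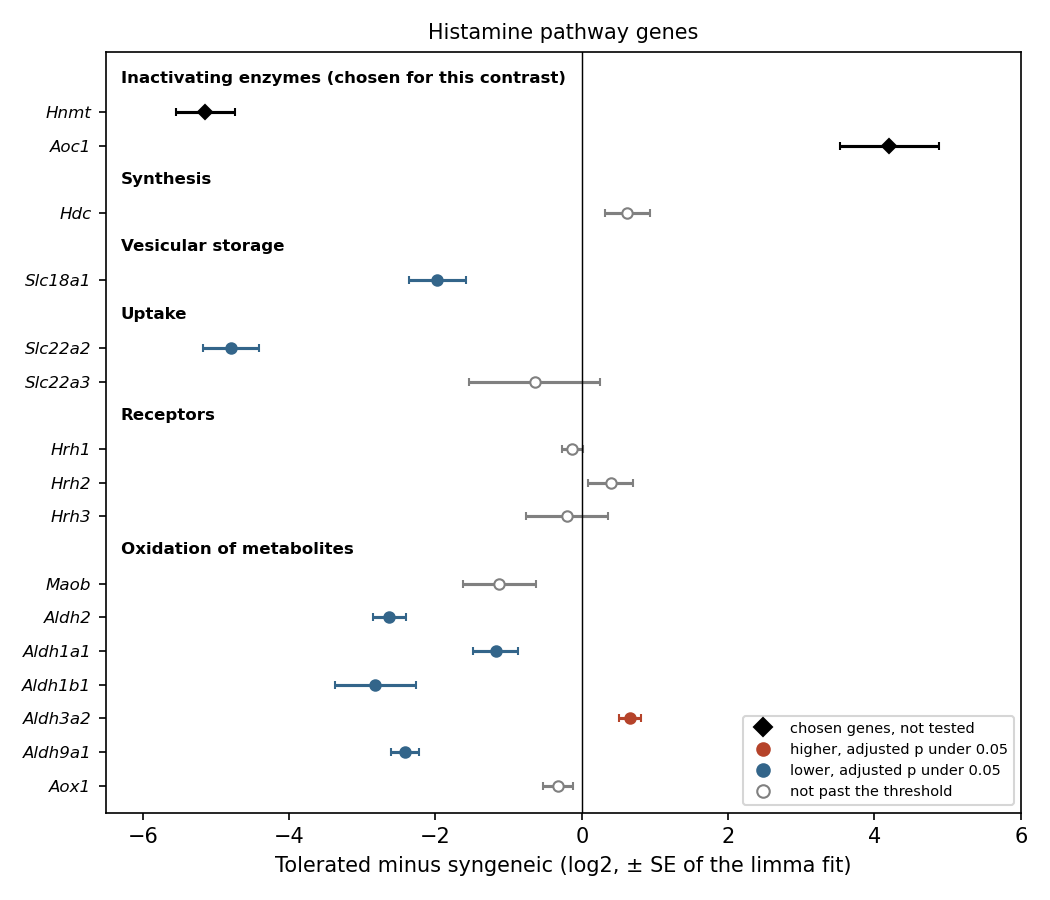
Difference between tolerated and syngeneic grafts (log2, with the SE of the limma fit) for Hnmt, Aoc1 and the 14 tested genes of the histamine pathway, grouped by role. Slc22a2 lies beside Hnmt at the left, Aoc1 stands alone at the right, and the receptor genes lie near 0.

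Hnmt needs S-adenosylmethionine, and most tested genes of small-molecule methyl transfer and of the methionine cycle were lower as well. Of 24 genes of small-molecule methyl transfer and the methionine cycle, 12 had no named probe here and 2 were under the filter (Mat1a and Mtr). Of the 10 tested, 9 fell and none rose by limma, where 17.2% of named genes tested were lower and 15.5% higher. The median difference was -2.49, against -0.02 over all tested probes. With any 1 array left out 8 or 9 fell, where 983 to 2996 of the 20142 tested probes were called lower. All 6 tested genes of the methionine cycle and of its outlet to cysteine fell, and 3 of 4 methyltransferase genes did.

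Cbs and Cth, which turn homocysteine into cysteine, were lower by limma, at -3.53 ± 0.25 and -3.28 ± 0.29 (SE; adjusted p = 0.00363 and 0.00406). Cbs stood at 11.32, 11.07 and 11.58 in tolerated and 14.72, 15.27 and 14.59 in syngeneic grafts. Bhmt, which remakes methionine from homocysteine with betaine, fell by 3.10 ± 0.45 (limma adjusted p = 0.00955). The glycine methyltransferase gene Gnmt fell by 2.81 ± 0.32 (adjusted p = 0.00588). Gamt, the enzyme gene of creatine synthesis, fell by 2.77 ± 0.28, while the phospholipid methyltransferase gene Pemt did not pass (0.26 ± 0.21). Mat2a, which makes S-adenosylmethionine outside the liver, fell by 2.21 ± 0.26, with 12.57, 12.77 and 12.34 in tolerated and 15.08, 14.96 and 14.29 in syngeneic grafts. Ahcy, which removes the spent donor, fell by 1.04 ± 0.19 but passed in only 2 of the 6 fits with an array left out (limma adjusted p up to 0.0584). Gamt, Pemt, Mat2a and Ahcy were picked after their values were seen.

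Of 7 other amine oxidase genes listed around Aoc1, the 2 tested, Lox and Aoc3, rose, while the called genes of polyamine synthesis and copper supply fell. Of 26 listed genes 12 had no named probe here, 2 were under the filter (the copper pump genes Atp7a and Atp7b), and of the 12 tested 2 rose and 4 fell by limma, with a median of -0.11, where 15.5% of named genes tested were higher and 17.2% lower. With no filter 3 rose and 3 fell of 14, and with a variance trend in the fit 3 rose and 4 fell of 12. Atp7a, picked after its values were seen, stood at 8.56, 7.85 and 8.20 in tolerated and 6.72, 5.74 and 6.74 in syngeneic grafts, which did not overlap. Lox, the copper enzyme that cross-links collagen, rose by 2.96 ± 0.27 (adjusted p = 0.00418), with 14.51, 14.29 and 14.32 in tolerated and 11.15, 11.15 and 11.96 in syngeneic grafts. Aoc3, the vascular adhesion amine oxidase VAP-1 and the closest tested relative of Aoc1, rose by 1.15 ± 0.20 (adjusted p = 0.0144), with 12.76, 12.82 and 12.27 in tolerated and 11.46, 11.44 and 11.51 in syngeneic grafts. A dimmer probe of Aoc3 had 0.56 ± 0.32 and did not pass (adjusted p = 0.244). The main probe of Aoc3 passed in 2 of 6 fits with 1 array left out, and Lox in all 6.

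Copper reaches such enzymes from the uptake transporter Slc31a1, whose gene fell by 2.54 ± 0.35 (limma adjusted p = 0.00836), with 10.8, 10.35 and 10.61 in tolerated and 13.46, 13.52 and 12.40 in syngeneic grafts. Arg2, the mitochondrial arginase that supplies ornithine, fell by 2.09 ± 0.18 (adjusted p = 0.00406). Odc1, which makes putrescine from ornithine, fell by 1.07 ± 0.21 (adjusted p = 0.0192), with 15.79, 16.08 and 16.06 in tolerated and 16.71, 17.16 and 17.26 in syngeneic grafts, and passed in 2 of the 6 fits with 1 array left out. Sat1, the acetylating enzyme of polyamine breakdown, had 0.58 ± 0.22 and did not pass (adjusted p = 0.104). Odc1 and Sat1 were picked after their values were seen. The list's fallen genes numbered 2 without any 1 tolerated replicate or without syngeneic replicate 2, and its risen genes 1 without tolerated replicate 1 or 2 or syngeneic replicate 1 or 2.

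**Figure D3:**
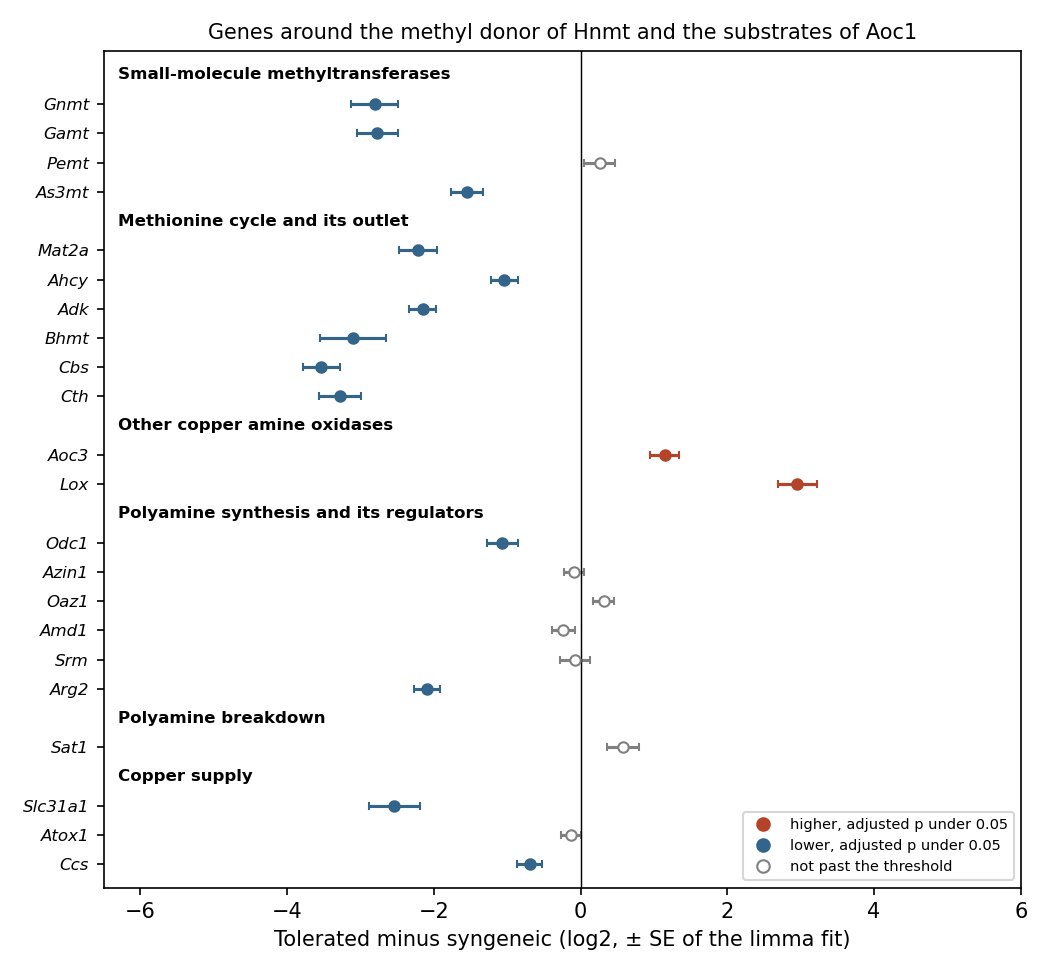
Difference between tolerated and syngeneic grafts (log2, with the SE of the limma fit) for the 10 tested genes of methyl transfer and the 12 tested genes of amine oxidation, polyamines and copper supply. In the upper blocks 9 of 10 genes lie left of 0 and past the threshold, and in the lower blocks Lox and Aoc3 lie right of it.

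Markers of the cells that store histamine were read next. Of 21 mast cell and basophil genes 8 had no named probe here (Cpa3 among them) and 4 were under the filter (Tpsb2, Mcpt4, Kit and Tpsg1). Of the 9 tested, 2 rose and none fell by limma, with a median of 1.13 and 3 at an unadjusted p under 0.05, where 15.5% of named genes tested were higher. The risen genes were the chymase gene Cma1, by 2.39 ± 0.19 (adjusted p = 0.00363), and Srgn, by 1.39 ± 0.24 (adjusted p = 0.0140), which encodes the granule proteoglycan serglycin found in many leukocytes. Cma1 stood at 13.02, 12.93 and 12.62 in tolerated and 10.36, 10.37 and 10.66 in syngeneic grafts. The tryptase gene Tpsab1 stood at 9.22, 9.30 and 9.11 in tolerated and 7.02, 8.25 and 8.96 in syngeneic grafts. These did not overlap, but the difference of 1.13 ± 0.49 did not pass (limma adjusted p = 0.147), and without syngeneic replicate 3 it was 1.58 and passed (adjusted p = 0.0438). Tpsab1 lay under the filter level of 7.76 in syngeneic replicate 1, so the size of this difference rests on dim values. The mean of syngeneic replicates 1 and 2 also lay under that level. Without syngeneic replicate 3, Tpsab1 was thus tested only because of its tolerated levels. Ms4a2 and Fcer1a, which encode chains of the IgE receptor, overlapped between groups at dim levels, Ms4a2 at 7.25 to 8.57 in tolerated and 7.62 to 8.49 in syngeneic grafts and Fcer1a at 6.84 to 8.74 in tolerated and 7.64 to 8.50 in syngeneic grafts. The sign of their differences changed with 1 array left out. For Ms4a2 (0.20) it changed to -0.006 without tolerated replicate 1 and to -0.03 without tolerated replicate 3. For Fcer1a (-0.10), which was tested in only 4 of the 6 such fits, it changed to 0.40 without tolerated replicate 1. Of the 9 tested differences 7 were positive, and those of Fcer1a and Gata2 were negative. Gata2 had 11.01 to 11.48 in tolerated and 11.50 to 11.93 in syngeneic grafts, without overlap, and did not pass (-0.41 ± 0.21, limma adjusted p = 0.207). Under the filter, the tolerated mean was lower for Tpsg1 (7.08 against 8.18) and Mcpt4 (6.78 against 7.65). It was higher for Tpsb2 (7.82 against 7.02) and Kit (7.66 against 7.50). All genes named here besides Cma1 and Srgn were picked after their values were seen.

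The granule protease genes Mcpt8 and Mcpt1 of the mast cell and basophil list were as high in syngeneic replicate 3 as in tolerated grafts. Mcpt8 stood at 10.48, 11.44 and 11.5 in tolerated and 6.39, 6.95 and 10.94 in syngeneic grafts, and Mcpt1 at 10.29, 12.19 and 11.99 in tolerated and 8.22, 7.55 and 12.34 in syngeneic grafts. Neither passed with all arrays (limma adjusted p = 0.122 and 0.296), and these 2 genes were picked after their values were seen. Without syngeneic replicate 3 both passed, Mcpt8 at 4.46 (adjusted p = 0.00337) and Mcpt1 at 3.58 (adjusted p = 0.0191). Mcpt8 lay under the filter level of 7.76 in syngeneic replicates 1 and 2, and Mcpt1 in syngeneic replicate 2. In that fit Mcpt8 was thus tested only because of its tolerated levels, and the size of its rise rests on dim values. Without syngeneic replicate 3 the list had 5 risen genes of 8 tested, where 15.1% of all tested probes were higher. Mcpt8 and Tpsab1, tested there only because of their tolerated levels, were among the 5. The list had 1 risen gene without tolerated replicate 1 or 3 or syngeneic replicate 2. The mean level of the tested members relative to all arrays was 0.41 to 0.66 in tolerated and -1.16, -0.82 and 0.29 in syngeneic grafts.

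Markers of other cells were compared as well, among named genes of which 15.5% were higher and 17.2% lower. In whole tissue, fewer cells of a type and less RNA per cell cannot be told apart. Proximal tubule genes were lower along with Hnmt: 21 of 23 tested fell and none rose, with a median difference of -3.17, led by Pck1, Fbp1, Slc22a7 and Slc22a6 (-5.42, -4.87, -4.60 and -4.22). Their mean level relative to all arrays was -2.03 to -1.27 in tolerated and 1.28 to 1.75 in syngeneic grafts. Of 14 distal nephron genes 3 fell (Klk1, Egf and Slc26a4), with a median of -0.41, and of 4 podocyte and endothelial genes 1 fell (Podxl, at -0.94), which passed in 1 of the 6 fits with 1 array left out.

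Along with Aoc1, tubular injury genes were higher: 17 of 19 tested rose and none fell, with a median of 2.62, led by Lcn2, Mmp7, Reg3b and Havcr1 (5.16, 4.50, 4.19 and 3.47). All 11 tested macrophage and dendritic cell genes rose, with a median of 2.99, led by Fcgr2b, Fcgr3a, C1qc and C1qa. The mean level of injury genes was 1.12 to 1.52 in tolerated and -1.71, -1.69 and -0.48 in syngeneic grafts, and that of macrophage genes 1.46 to 1.63 in tolerated and -2.12, -2.0 and -0.46 in syngeneic grafts. Of 4 granulocyte genes S100a9 rose (1.00 ± 0.26). Risen injury genes numbered 8, 9, 11 and 7 without tolerated replicate 1, tolerated replicate 2, syngeneic replicate 1 and syngeneic replicate 2, risen macrophage genes 6 and 7 without tolerated replicates 1 and 3, and S100a9 was called in 1 of the 6 such fits. The part of any of these cell types in the levels of Hnmt and Aoc1 was not tested.

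**Figure D4:**
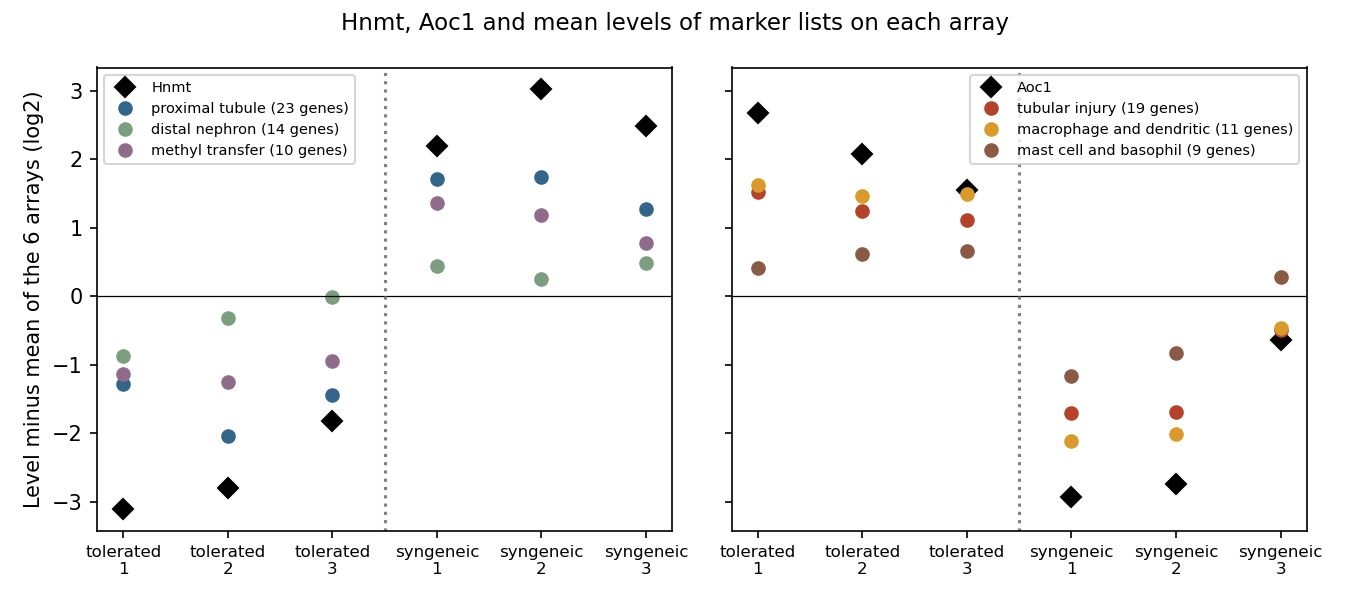
Level on each array minus the mean of the 6 arrays (log2) for Hnmt with the mean of the proximal tubule, distal nephron and methyl transfer lists (left panel), and for Aoc1 with the mean of the tubular injury, macrophage and mast cell lists (right panel), tolerated arrays left of syngeneic ones. In syngeneic replicate 3 Hnmt stays with its group, while Aoc1 and the lists of the right panel lie above the other syngeneic arrays.

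Genes with the most similar pattern were sought by Pearson correlation of the 6 log2 levels over 4953 other named genes. The 6 arrays form separate groups, so a high correlation is common for any gene that differs between them, and 453 genes exceeded 0.95 with Hnmt and 572 with Aoc1. Closest to Hnmt were Sdhd, a membrane subunit of succinate dehydrogenase, the serine protease gene Prss30, the prolyl endopeptidase gene Prep, Mep1b, a metalloprotease of the brush border, and the catalase gene Cat (correlations 0.997 to 0.999). Of these, Prep had the most similar deviations from the group means (0.992 over 6 arrays), with levels of 13.79, 13.88 and 14.26 in tolerated and 16.61, 16.87 and 16.74 in syngeneic grafts. Closest to Aoc1 were Apobec1, the cytidine deaminase that edits apolipoprotein B transcripts, Nsmf, the ubiquitin hydrolase gene Uchl1, the DNA repair gene Parp1 and the phospholipid scramblase gene Plscr1 (0.998 to 0.999). Apobec1 had the most similar deviations (0.997), with levels of 16.39, 16.11 and 15.70 in tolerated and 12.64, 12.67 and 14.12 in syngeneic grafts, so that it shared the intermediate level of syngeneic replicate 3.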

How the data were processed

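RNA of 6 grafts was hybridised to the Applied Biosystems rat genome survey array after amplification of 0.5 µg per sample, per the labels' protocols. The authors' deposited files hold raw intensity per probe and, as a series matrix, log2 values whose columns shared a median of 9.36 and ranked probes as the raw columns did. Background subtraction and spot flagging on the scanner were not given in the sources used here. Intensities were taken as log2 and quantile normalized, without further background correction. Probes were kept if their mean over all 6 arrays exceeded the lower quartile (7.76). Genes were named from the platform annotation (6104 probes with 1 symbol, 70 with several, 20683 with none listed), updated through Entrez identifiers to RefSeq GRCr8 (6081 matched). The brightest probe stood for a gene.

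Tolerated minus syngeneic differences were fitted without covariates by limma 3.58.1 (R 4.3.3), using lmFit with eBayes and two-sided p-values. These were adjusted by Benjamini-Hochberg over the 20142 probes kept, with a threshold of 0.05, and the procedure was tested on simulated data. The number of arrays limits the precision. The members and the 10 gene lists were chosen with earlier results of these data known. Named were every tested gene of the histamine list, up to 4 called members with the largest change of every other list, and the 5 genes most like Hnmt or Aoc1, besides those said to be picked later. Alternatives were median scaling, the deposited log2 values, no or a stricter filter, 50 added before log2, a replicate block, a variance trend and leaving out each array. Upstream windows came from RefSeq tables; probe sequences were not used here. A listed gene is not reported here.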

Additional observations from a re-analysis of the deposited data

How the results depend on the processing

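Hnmt stayed lower and Aoc1 higher in tolerated grafts under all 7 alternatives and with any 1 array left out. Their log2 differences were -5.29 to -5.10 and 3.96 to 4.20 over the 7, and -5.56 to -4.86 and 3.81 to 4.91 over the fits with 1 array left out. Histamine pathway genes called higher numbered 0 after median scaling, with no filter and with the replicate block, against 1 as reported. Median scaling moved the median difference of all probes to -0.15, against -0.02, and the called probes to 1735 higher and 2886 lower (37.5% higher), against 2490 and 2585 (49.1%). The replicate block, which spends degrees of freedom, left 4 histamine pathway genes lower, against 6 (Slc18a1 and Aldh1a1 at limma adjusted p = 0.0707 and 0.0953 no longer passed, nor did Aldh3a2 at 0.0885), and gave 781 higher and 1105 lower probes, 1 amine oxidase and polyamine gene higher and 1 mast cell and basophil gene higher. Deviations of same-numbered arrays correlated at -0.00230, 0.0112 and 0.0538, and those of differently numbered arrays at -0.0383 to 0.0313. All were near 0, though that of the arrays numbered 3 was the highest. Such small values cannot decide whether the arrays were paired. With 1 array left out, and so fewer samples, probes called numbered 627 to 3050 higher and 983 to 2996 lower, histamine pathway genes 0 to 1 higher and 3 to 7 lower, amine oxidase and polyamine genes 1 to 2 higher and 2 to 4 lower, and mast cell and basophil genes 1 to 5 higher. Of the uncalled histamine pathway genes, Hrh3 (-0.52 to 0.33) changed sign without tolerated replicate 3 (0.14) or syngeneic replicate 1 (0.33), and Slc22a3 (-1.39 to 0.034) without syngeneic replicate 1. The cause was not tested. Dim probes, among them Aoc1 and Mcpt8 in syngeneic replicates 1 and 2, Tpsab1 in syngeneic replicate 1, Hdc, Ms4a2 and Fcer1a, have no measured distance from background.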
